A study of Rattus norvegicus with 23 samples.

Results

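The genes described here encode calmodulin, calcineurin and the classical calpains, 3 groups of proteins that respond to calcium inside neurons. The 9 genes are Calm2 and Calm3 (calmodulin), Ppp3ca, Ppp3cb and Ppp3cc (catalytic subunits of calcineurin), Ppp3r1 (its regulatory subunit), Capn1 and Capn2 (large subunits of calpain) and Capns1 (the small subunit that both calpains share). They were chosen by name, and every probe set that the array annotation assigns to a single one of these symbols was taken, which gave 12 of the 29211 probe sets. Of the 12, 11 reached a signal of 40 on 4 or more arrays, and with them 13339 probe sets in all were tested. The exception was probe set 10908218 of Ppp3r1, which reached that signal on 3 arrays. The study itself named Calm2, Capns1, Ppp3cb, Ppp3cc and Capn1 from these samples, so their counts below are not independent evidence. Its Calm2 values may come from another probe set than the 2 described here.

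Calmodulin is a small calcium sensor that, once loaded with calcium, binds and switches many enzymes. One of them is calcineurin, a phosphatase whose catalytic subunit works only with its regulatory subunit and which is known in the hippocampus for its part in synaptic depression and in the signalling of transcription factors of the NFAT family. Calpains are proteases that calcium activates directly and that cut cytoskeletal and synaptic proteins. FKBP1b, also called FKBP12.6, is an immunophilin that steadies ryanodine receptors, the channels that release calcium from intracellular stores.

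Each of the 23 arrays held RNA from the dorsal hippocampus of a single male F344 rat. The aged rats were 21 months old and had bilateral injections of adeno-associated virus into hippocampal CA1, with either FKBP1b for a long time (LT, 6 arrays), FKBP1b for a short time (ST, 6 arrays) or enhanced green fluorescent protein (AC, 5 arrays), all under the CaMKII promoter, which is active mainly in excitatory neurons. The young controls (YC, 6 arrays) were 5 to 6 months old, and by the study's methods they had no injection, although their labels read sham. The labels place the injections at 12 months of age for LT and at 18 months for ST and AC, whereas the design text gives 13 months for LT, 19 for ST and 13 for AC. The titer of the eGFP vector was the higher, and the ST and LT rats on arrays had been picked for high FKBP1b. AC against YC therefore holds age, surgery and vector together, and LT or ST against AC holds transgene, titer and that selection together. By the labels LT against AC also holds age at injection and time since injection, and by the design text ST against AC does. These cannot be told apart.

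Probe set 10940524, which the annotation used here assigns to Fkbp1b, gave 843 to 1217 in LT and 427 to 881 in ST, against 364 to 458 in AC and 353 to 411 in YC. The study, in contrast, stated that this array lacks a probe set for FKBP1b, and it measured the transcript by qRT-PCR. RNA integrity numbers lay between 8.9 and 9.8, and the median signal of an array between 134 and 141. The neuronal markers of the labelled tissue were high on all arrays (Snap25 10548 to 11617, Slc17a7 4064 to 5764), and 4 arrays carried high choroid plexus markers (AC replicates 3 and 4, LT replicates 2 and 5). AC replicate 5 had the highest microglia score of all, with a mean log2 deviation of its 8 microglia markers of 0.99 from the average array, and the lowest oligodendrocyte score (-0.50). In AC against YC, 7 of 8 microglia markers, 5 of 7 endothelial markers and 2 of 8 astrocyte markers (Gfap and S100b) were called higher and 1 of 12 neuron markers (Vsnl1) lower. Of the 8 astrocyte markers, however, 5 lay below 0 and 3 above, with a median of -0.04. The microglia score was -0.03 to 0.99 in AC and -0.36 to -0.25 in YC, the endothelial score -0.03 to 0.49 in AC and -0.16 to -0.10 in YC, and the neuron score -0.08 to 0.06 in AC and 0.00 to 0.06 in YC. In LT and in ST against AC, all 7 endothelial markers lay below 0 (median -0.23 in LT and -0.22 in ST, with Pecam1 called in LT against AC at -0.57, adjusted p = 0.039) and all 7 oligodendrocyte markers above 0 (median 0.14 in LT and 0.15 in ST). Of the microglia markers, 8 of 8 lay below 0 in LT and 7 of 8 in ST against AC, and in ST against AC all 9 choroid plexus markers lay below 0 (median -1.88). Of the 12 neuron markers, all 12 lay above 0 in ST against AC (median 0.03). In LT against AC 8 of them lay below 0 and 4 above (median -0.04), and in LT against YC all 12 lay below 0 (median -0.05, 0 called). Apart from Pecam1, none of these markers was called in LT or ST against AC. The neuron, microglia, oligodendrocyte and choroid plexus scores were used as covariates in alternative fits, and the astrocyte and endothelial scores were not. Whether these shifts caused the differences below was not tested. In such bulk tissue fewer cells of a type and less RNA per cell cannot be told apart.

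Signals below are unlogged RMA intensities, the summary of all probes of a probe set, and a probe set's level cannot be set against that of another. Differences are log2 fold changes (LT, ST or AC over the group named second) from a limma fit of all 4 groups, with the standard error (SE). A probe set was called when its Benjamini-Hochberg adjusted p over all tested probe sets was under 0.05. Ppp3cb was the only tested probe set of the 9 genes that was called in any comparison.

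**Figure D1:**
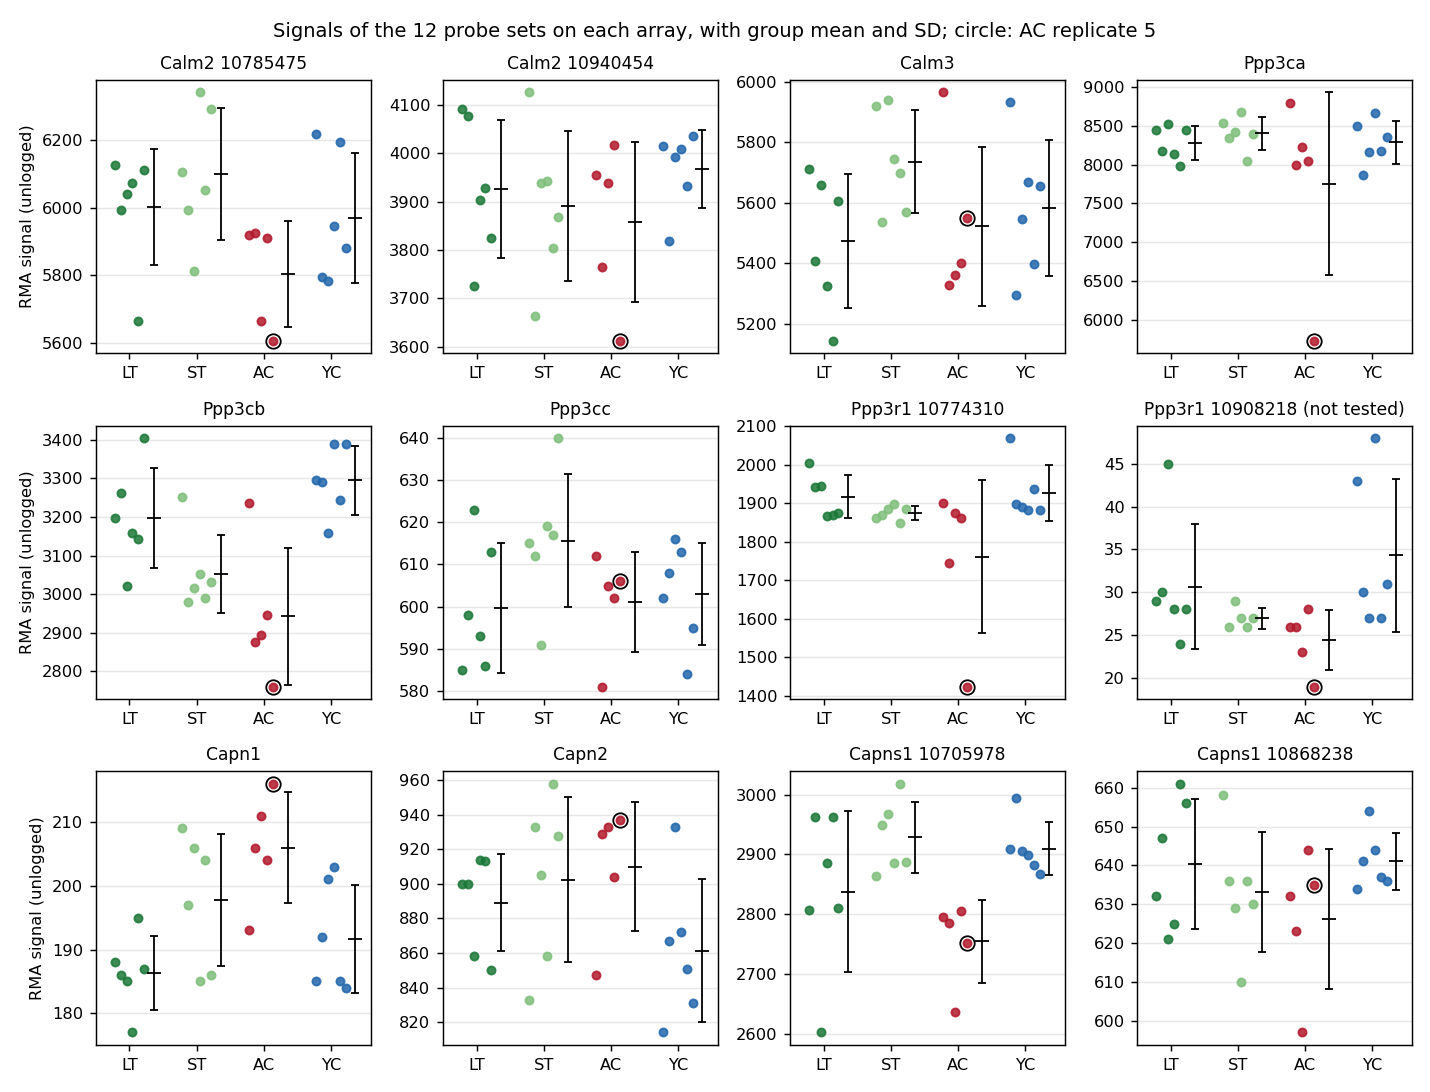
Unlogged RMA signal (vertical axis, own scale in each panel, not starting at 0) of the 12 probe sets on each array, in LT, ST, AC and YC from left to right, with the group mean and SD beside the points and a circle around AC replicate 5. Ppp3cb lay below the lowest YC array on 4 of 5 AC arrays, and AC replicate 5 lay far below all other arrays for Ppp3ca (5732) and Ppp3r1 10774310 (1423).

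Calmodulin transcripts differed little between groups. Calm2, which encodes the same calmodulin protein as Calm3 from a separate gene, had 2 probe sets. Probe set 10785475 of Calm2 gave 5666, 5992, 6041, 6074, 6110 and 6126 in LT and 5812, 5994, 6053, 6105, 6292 and 6341 in ST, against 5607, 5665, 5911, 5920 and 5926 in AC and 5785, 5795, 5880, 5946, 6195 and 6217 in YC. Of these, 5 of 6 LT arrays and 5 of 6 ST arrays lay above the highest AC array, while AC and YC overlapped. The difference of ST from AC was 0.07 (SE 0.03) with an adjusted p of 0.47 (limma), and that of AC from YC was -0.04 (SE 0.03, adjusted p = 0.41), and neither passed. The second Calm2 probe set, 10940454, ranged over 3725 to 4092 in LT, 3663 to 4126 in ST, 3612 to 4016 in AC and 3819 to 4036 in YC, so that every pair of groups overlapped. Calm3 ranged over 5143 to 5711 in LT, 5535 to 5940 in ST, 5329 to 5966 in AC and 5294 to 5935 in YC, and its largest difference, -0.07 (SE 0.03) in LT against ST, also missed the threshold (adjusted p = 0.42).

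Calcineurin showed the clearest difference, and it lay in a single catalytic subunit. The regions around the RefSeq start sites of the 3 calcineurin genes with the most marked values are shown first, since Ppp3cb was called and Ppp3ca and Ppp3r1 were low together on the same array. Each start is that of a single RefSeq transcript and lies inside the annotated span of its gene, farthest inside for Ppp3r1, so it is not the gene's first annotated base. Each is the 300 bases from 250 before to 50 after the start (assembly GRCr8), with GGGCGG or CCGCCC (the core of the GC box, known to bind factors of the Sp1 family) and TGACG or CGTCA (the half-site of the cAMP response element, known to bind CREB) in capitals.
Ppp3cb (chr15:3809012-3809311, plus strand): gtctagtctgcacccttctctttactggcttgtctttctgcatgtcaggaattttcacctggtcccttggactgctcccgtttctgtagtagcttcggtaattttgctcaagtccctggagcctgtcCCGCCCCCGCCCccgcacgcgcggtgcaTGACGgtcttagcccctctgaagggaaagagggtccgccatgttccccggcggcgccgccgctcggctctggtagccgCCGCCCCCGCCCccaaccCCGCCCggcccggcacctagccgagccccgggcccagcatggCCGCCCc
Ppp3ca (chr2:227839357-227839656, plus strand): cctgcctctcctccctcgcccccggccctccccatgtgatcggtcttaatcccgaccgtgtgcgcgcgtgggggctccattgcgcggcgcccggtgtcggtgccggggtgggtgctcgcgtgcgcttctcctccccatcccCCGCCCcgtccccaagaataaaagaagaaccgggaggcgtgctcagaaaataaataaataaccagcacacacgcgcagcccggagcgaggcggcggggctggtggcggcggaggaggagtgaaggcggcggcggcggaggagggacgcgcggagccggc
Ppp3r1 (chr14:95769596-95769895, plus strand): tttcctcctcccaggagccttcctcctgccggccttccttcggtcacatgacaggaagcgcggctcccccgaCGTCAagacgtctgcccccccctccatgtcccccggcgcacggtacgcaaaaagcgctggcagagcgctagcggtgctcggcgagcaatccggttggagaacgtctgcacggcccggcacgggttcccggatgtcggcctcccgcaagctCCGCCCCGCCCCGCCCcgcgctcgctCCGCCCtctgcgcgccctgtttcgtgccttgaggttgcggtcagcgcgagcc
Counting overlapping matches on both strands, the window held 6 GC box cores in Ppp3cb, 1 in Ppp3ca and 4 in Ppp3r1, and 33.1% of all 33469 windows in the table held at least 1. The cAMP half-site occurred 1 time in Ppp3cb, at position -95, and 1 time in Ppp3r1, at position -178, and not in the Ppp3ca window, whereas 21.2% of all windows held it. The G and C content was 66.7% in Ppp3cb, 70.0% in Ppp3ca and 70.3% in Ppp3r1, against a median of 51.7% over all windows. These matches describe the letters of the windows alone, and 5 of the 9 genes were in the table.

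Ppp3cb encodes the beta isoform of the catalytic subunit. Its probe set 10779099 gave 2760, 2876, 2894, 2946 and 3236 in AC, against 3159, 3244, 3291, 3296, 3390 and 3390 in YC. All AC arrays but replicate 1 lay below every YC array. The mean was 2942 ± 178 in AC (SD, n = 5) and 3295 ± 88.5 in YC (SD, n = 6), and the log2 fold change was -0.16 (SE 0.04, 95% confidence interval -0.24 to -0.09) or -10.8%, with an adjusted p of 0.0099. Ppp3cb was thus 1 of the 11 tested probe sets that was called in AC against YC, where 9.75% of all tested probe sets were called.

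For Ppp3cb, the means of LT (3198 ± 129) and ST (3054 ± 101) lay between those of AC and YC (SD, n = 6 each). The signals were 3021, 3142, 3159, 3198, 3261 and 3405 in LT and 2980, 2990, 3016, 3031, 3051 and 3253 in ST. LT overlapped with YC broadly, whereas 5 of 6 ST arrays lay below every YC array. LT exceeded the AC mean by 0.12 (SE 0.04) with an unadjusted limma p of 0.0036, which did not pass after adjustment (adjusted p = 0.18), and ST by 0.05 (SE 0.04, adjusted p = 0.65). Against YC, the log2 fold change was -0.11 (SE 0.04, adjusted p = 0.078) in ST and -0.04 (SE 0.04, adjusted p = 0.64) in LT. LT differed from ST by 0.07 (SE 0.04, adjusted p = 0.44), so no difference between the exposures was shown. Without AC replicate 1, the LT difference from AC passed (0.16, adjusted p = 0.035), and the ST difference from YC passed without AC replicate 1 (-0.11, adjusted p = 0.042), AC replicate 5 (-0.11, adjusted p = 0.047) or ST replicate 1 (-0.13, adjusted p = 0.036). Because ST and LT were set against the same AC arrays, their values share that group's error.

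Over all aged rats together, Ppp3cb fell by 0.11 on the log2 scale against YC (SE 0.03, adjusted p = 0.029), with 11 of 17 aged arrays below the lowest YC array. It was 1 of 11 in that comparison, against 8.55% of all tested probe sets, and 1 of 11 by the F test across the 4 groups (adjusted p = 0.031), against 5.46%. The difference of the aged rats missed the threshold without YC replicate 1 (adjusted p = 0.051), 2 (adjusted p = 0.062), 4 or 6 (adjusted p = 0.073 for both), with array medians made equal (-0.08, adjusted p = 0.085), without the 4 arrays with high choroid plexus markers (-0.10, adjusted p = 0.072), and with the neuron (-0.08, adjusted p = 0.17) or the microglia marker score as a covariate (-0.06, adjusted p = 0.34). The F test called no member without those 4 arrays or without any 1 of AC replicates 2, 3 and 4 or YC replicates 2, 4 and 6. The call in AC against YC held on leaving out any single array (adjusted p 0.0012 to 0.027). It was lost when only the AC and YC arrays were fitted (-0.16, adjusted p = 0.055), on leaving out the 4 arrays with high choroid plexus markers (-0.16, adjusted p = 0.072), with the neuron marker score as a covariate (-0.13, adjusted p = 0.062) and with the microglia marker score as a covariate, chosen after the data were seen (-0.11, adjusted p = 0.18).

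Ppp3ca encodes the alpha catalytic subunit, known as the main form in forebrain neurons. The signals were 5732, 7991, 8043, 8229 and 8790 in AC, against 7867, 8157, 8171, 8358, 8496 and 8661 in YC. A single array, AC replicate 5, stood apart, and the other 4 AC arrays lay within or above the YC range. LT ranged over 7976 to 8521 and ST over 8043 to 8681. The log2 fold change of AC against YC was -0.11 (SE 0.07, adjusted p = 0.31), and without AC replicate 5 it was -0.0041 (adjusted p = 0.95). Likewise, ST against AC gave 0.13 (adjusted p = 0.55) with that array and 0.03 without it, and LT against AC 0.11 (adjusted p = 0.51) with it and 0.0040 without it.

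Ppp3r1 encodes calcineurin B, the calcium-binding regulatory subunit. Probe set 10774310 gave 1423, 1744, 1863, 1876 and 1902 in AC, against 1882, 1882, 1891, 1899, 1937 and 2070 in YC. The AC arrays lay lower, with 4 of 5 below every YC array, but replicate 1 did not, and replicate 5 lay far below the rest. LT ranged over 1866 to 2006 and ST over 1848 to 1898. The log2 fold change of AC against YC was -0.14 (SE 0.05, adjusted p = 0.098) and that of LT against AC 0.13 (SE 0.05, adjusted p = 0.31). Without AC replicate 5 these were -0.06 (adjusted p = 0.20) and 0.05 (adjusted p = 0.48), and without AC replicate 1 the first was -0.17 (adjusted p = 0.044). With the microglia marker score as a covariate, the difference of AC from YC turned to 0.026 for Ppp3r1 (adjusted p = 0.78) and to 0.13 for Ppp3ca (adjusted p = 0.16). The dim probe set 10908218, which was not tested, gave 19, 23, 26, 26 and 28 in AC and 27, 27, 30, 31, 43 and 48 in YC, with the lowest value again on AC replicate 5.

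On AC replicate 5, the signal of Ppp3ca was 69.4% and that of Ppp3r1 10774310 77.1% of the mean of the other 4 AC arrays. Of all tested probe sets, 2.53% lay as far or further below that mean as Ppp3ca on this array, and 5.09% as far as Ppp3r1. The other members moved less there, with Ppp3cb at 92.4%, Ppp3cc at 101%, Calm3 at 100.7%, Capn1 at 106% and Capns1 10705978 at 99.9%. The neuron marker score of that array was 0.02 and its RNA integrity number 8.9, the lowest of the AC group. With the microglia score as a covariate, the Ppp3ca and Ppp3r1 differences of AC from YC turned, as given above. The oligodendrocyte score as a covariate, also chosen after the data were seen, left Ppp3ca with an adjusted limma p of 0.68 in AC against YC. In LT against AC that adjusted p was 0.95. What part these scores had in the values of this single array was not tested.

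Ppp3cc encodes the gamma catalytic subunit, known for its abundance in testis. It ranged over 585 to 623 in LT, 591 to 640 in ST, 581 to 612 in AC and 584 to 616 in YC, and every pair of groups overlapped. Its difference of AC from YC was -0.0043 (SE 0.03, 95% confidence interval -0.06 to 0.05), the closest to 0 of the 4 calcineurin genes.

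Within groups, the catalytic and regulatory subunits were compared array by array as log2 signals minus their group mean, over 23 arrays and 8 pairs of partners. Ppp3ca and Ppp3r1 gave a Pearson r of 0.90 (permutation p = 0.0044, 0.035 adjusted over the 8 pairs) and a Spearman rho of 0.63 (permutation p = 0.010, adjusted p = 0.083). The relation rested on AC replicate 5, since r was 0.47 without it (group means retaken, adjusted p = 0.25 by permutation). It was 0.56 without the 2 arrays farthest on the Ppp3ca axis (AC replicates 1 and 5). For that value the group means still included both arrays, so it is not free of AC replicate 5. Ppp3cb and Ppp3r1 gave r = 0.39 (adjusted permutation p = 0.36), Ppp3ca and Ppp3cb 0.55 (adjusted permutation p = 0.24), and Ppp3cc and Ppp3r1 -0.02 (adjusted permutation p = 0.91). Of the other 4 pairs, Calm2 with Calm3 gave 0.29, Capn1 with Capn2 0.39, Capn1 with Capns1 0.08 and Capn2 with Capns1 0.33, with adjusted permutation p between 0.24 and 0.78.

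**Figure D2:**
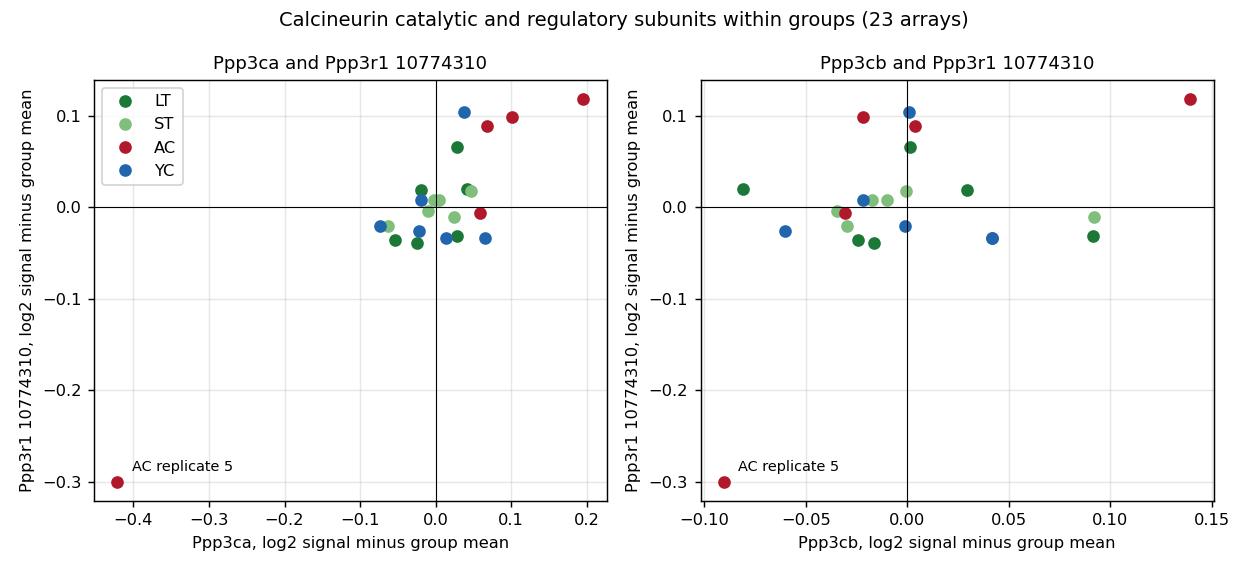
Log2 signal minus the group mean of Ppp3r1 10774310 (vertical) against that of Ppp3ca (left) and Ppp3cb (right), 1 point for each of the 23 arrays, coloured by group. AC replicate 5 lies alone at the lower left of both panels, and the correlation of Ppp3ca with Ppp3r1 is 0.90 with it and 0.47 without it.

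The calpain genes moved in both directions, and none was called. Capn1 encodes the large subunit of mu-calpain, the form that responds to low calcium. Its probe set 10728093 gave 177, 185, 186, 187, 188 and 195 in LT and 185, 186, 197, 204, 206 and 209 in ST, against 193, 204, 206, 211 and 216 in AC and 184, 185, 185, 192, 201 and 203 in YC. LT lay below the lowest AC array on 5 of 6 arrays, AC lay above the highest YC array on 4 of 5, and ST overlapped with AC and with YC. The log2 fold change was -0.14 in LT against AC (SE 0.04, unadjusted limma p of 0.0014, adjusted p = 0.15), -0.06 in ST against AC (SE 0.04, adjusted p = 0.65) and 0.10 in AC against YC (SE 0.04, adjusted p = 0.092). LT against ST gave -0.09 (SE 0.04, adjusted p = 0.36). All endothelial and microglia markers had differences below 0 in LT against AC, though 1 alone was called, and their part in the Capn1 difference was not tested. With the microglia score as a covariate, chosen after the data were seen, the Capn1 difference of LT from AC was -0.13 (adjusted p = 0.19). The AC against YC difference passed without AC replicate 1 (0.13, adjusted p = 0.039) and with array medians made equal (0.13, adjusted p = 0.037).

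Capn2 encodes the large subunit of m-calpain, which needs more calcium. It ranged over 850 to 914 in LT, 833 to 958 in ST, 847 to 937 in AC and 814 to 933 in YC, with every pair of groups overlapping. The log2 fold change was 0.08 in AC against YC (SE 0.04, adjusted p = 0.20), -0.03 in LT against AC (adjusted p = 0.75) and -0.01 in ST against AC (adjusted p = 0.95).

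Capns1 encodes the small regulatory subunit that stabilises both enzymes. Probe set 10705978 gave 2603, 2807, 2810, 2885, 2962 and 2962 in LT and 2864, 2886, 2888, 2950, 2968 and 3018 in ST, against 2637, 2753, 2785, 2795 and 2806 in AC and 2868, 2882, 2899, 2906, 2909 and 2994 in YC. Every AC array lay below every YC array and below every ST array, and LT overlapped with every other group. This was the only member without overlap, 1 of 11 in AC against YC, where 5.09% of tested probe sets did not overlap, and 1 of 11 in ST against AC, where 0.51% did not. The differences were small and did not pass, at -0.08 in AC against YC (SE 0.03, adjusted p = 0.096), 0.09 in ST against AC (SE 0.03, unadjusted limma p of 0.0078, adjusted p = 0.38) and 0.04 in LT against AC (SE 0.03, adjusted p = 0.57). The other Capns1 probe set, 10868238, overlapped in every pair of groups, with 621 to 661 in LT, 610 to 658 in ST, 597 to 644 in AC and 634 to 654 in YC, and its difference of AC from YC was -0.03 (SE 0.03, adjusted p = 0.41).

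**Figure D3:**
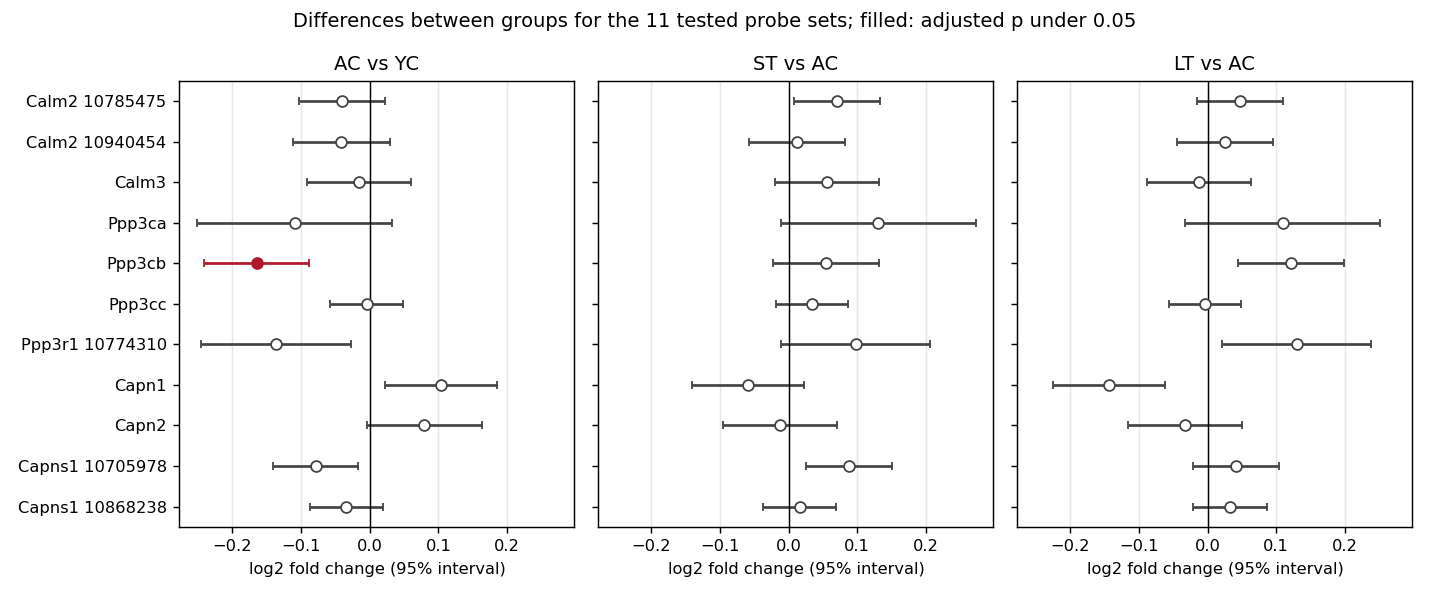
Log2 fold change (horizontal) with its 95% confidence interval from limma for the 11 tested probe sets in AC against YC, ST against AC and LT against AC; filled points have an adjusted p under 0.05. Ppp3cb in AC against YC (-0.16) is the only filled point.

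Counted over the members, 9 of 11 log2 fold changes of AC against YC were below 0 (7 of 11 with array medians made equal, and 5 of 11 with the microglia score as a covariate), with a median of -0.04 beside -0.0062 over all tested probe sets (0.0033 over the members with that covariate). At an unadjusted p under 0.05, 4 of 11 stood out in AC against YC (Ppp3cb, Ppp3r1 10774310, Capn1 and Capns1 10705978), against 27.4% of all tested probe sets. Of all tested probe sets, 742 were called higher and 558 lower in AC, and with array medians made equal 991 higher and 356 lower. In ST against AC 0 of 11 were called (0% of all), with 2 of 11 at an unadjusted limma p under 0.05 (Calm2 10785475 and Capns1 10705978) against 9.82% of all. In LT against AC 0 of 11 were called (0.075% of all), with 3 of 11 at an unadjusted limma p under 0.05 (Ppp3cb, Ppp3r1 10774310 and Capn1) against 12.6%. None of the 11 was called in ST and LT averaged against AC (0.03% of all), in LT against ST (0.0075%), in ST against YC (4.15%) or in LT against YC (1.03%). In the same order, limma gave 5, 1, 1 and 0 of the 11 an unadjusted p under 0.05, against 10.5%, 12.4%, 21.7% and 13.4% of all. The median half-width of the 95% confidence interval of the 11 differences was 0.08 on the log2 scale in AC against YC, in ST against AC and in LT against AC. These intervals are not adjusted for the number of probe sets, so the size needed for a call was larger. Ppp3r1 10774310 at -0.14 in AC against YC and Capn1 at -0.14 in LT against AC, for example, were not called.

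By the study's own rule, a one-way analysis of variance on unlogged signals with least significant difference contrasts, both taken at 0.05 without adjustment, 3 of 11 members passed the first step (Ppp3cb, Capn1 and Capns1 10705978), against 24.2% of all tested probe sets. The same 3 also passed for AC against YC (18.3% of all) and for an opposite change in ST or LT (8.82% of all). With so few members these shares say little, and the study had listed these genes from the same samples. After Benjamini-Hochberg adjustment the same analysis called 1 of 11 in AC against YC, Ppp3cb again (adjusted p = 0.010).

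The genes that act around the members were described from lists of known partners. Among 13 tested genes of other calpains and calpastatin, 12 lay below 0 in AC against YC (11 with array medians made equal), with a median log2 fold change of -0.10 beside -0.0062 over all tested probe sets. Only Capn9, a calpain known from the digestive tract, was called among them, 1 of 13 where 9.75% of all tested probe sets were called. It averaged 88.4 ± 10.1 in AC (SD, n = 5) and 107 ± 6.97 in YC (SD, n = 6), and fell by 0.28 on the log2 scale (adjusted p = 0.023). Capns2, a second small subunit, was called lower in LT against YC, where 1.03% of all were called, with 75.8 ± 2.79 in LT and 90.5 ± 7.34 in YC (SD, n = 6 each, -0.25, adjusted p = 0.046).

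Of 19 tested calpain substrates, 2 were called higher in AC than in YC and none lower, close to the 9.75% called among all tested probe sets. Tln1, which encodes the adhesion protein talin, averaged 311 ± 13.4 in AC (SD, n = 5) and 257 ± 12.7 in YC (SD, n = 6), a log2 fold change of 0.28 (adjusted p = 0.00044). It was also called higher in LT against YC (0.21, adjusted p = 0.011) and in ST against YC (0.19, adjusted p = 0.0085). Vim, the intermediate filament protein vimentin of glia and vessels, averaged 1230 ± 198 in AC and 765 ± 64.2 in YC, and rose by 0.67 on the log2 scale (adjusted p = 0.00051). Both genes are known from vascular and glial cells as well, and the part of the higher microglia and endothelial markers in their values was not tested. The neuronal substrates, among them the spectrins, microtubule-associated proteins and neurofilaments, did not pass.

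Among calcineurin's substrates, 1 of 17 tested was called higher and 1 lower in AC against YC, again near the 9.75% of all. Crtc2, a coactivator of CREB that calcineurin dephosphorylates, averaged 468 ± 16.4 in AC (SD, n = 5) and 416 ± 29.6 in YC (SD, n = 6), with a log2 fold change of 0.17 (adjusted p = 0.039). Dnm1l, the mitochondrial fission protein Drp1, averaged 1701 ± 93.3 in AC and 1821 ± 44.9 in YC, and fell by 0.10 on the log2 scale (adjusted p = 0.046). Of 10 tested regulators and anchors of calcineurin none was called in AC against YC, and Chp2 (-0.18, adjusted p = 0.10) and Rcan3 (-0.15, adjusted p = 0.11) came closest. In all aged rats against YC, 1 of the 10 was called higher and 1 lower, where 8.55% of all tested probe sets were called. Rcan3, of the family of calcineurin inhibitors, was called lower in ST against YC, where 4.15% of all were called (-0.22, adjusted p = 0.036), with 145 ± 8.62 in ST and 169 ± 4.88 in YC (SD, n = 6 each).

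Of 17 calmodulin-binding proteins, 2 were called higher in AC than in YC and none lower, also near 9.75%. Eef2k, the calmodulin-dependent kinase of elongation factor 2, averaged 225 ± 23.5 in AC (SD, n = 5) and 186 ± 5.18 in YC (SD, n = 6), with a log2 fold change of 0.27 (adjusted p = 0.0038). Iqgap1, a scaffold protein, averaged 363 ± 64.9 in AC and 292 ± 4.97 in YC (0.30, adjusted p = 0.016). Of the calmodulin genes outside the members, Calml3 and Calml4 were tested and neither passed. In ST against AC and in LT against AC, none of the genes on these lists was called.

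**Figure D4:**
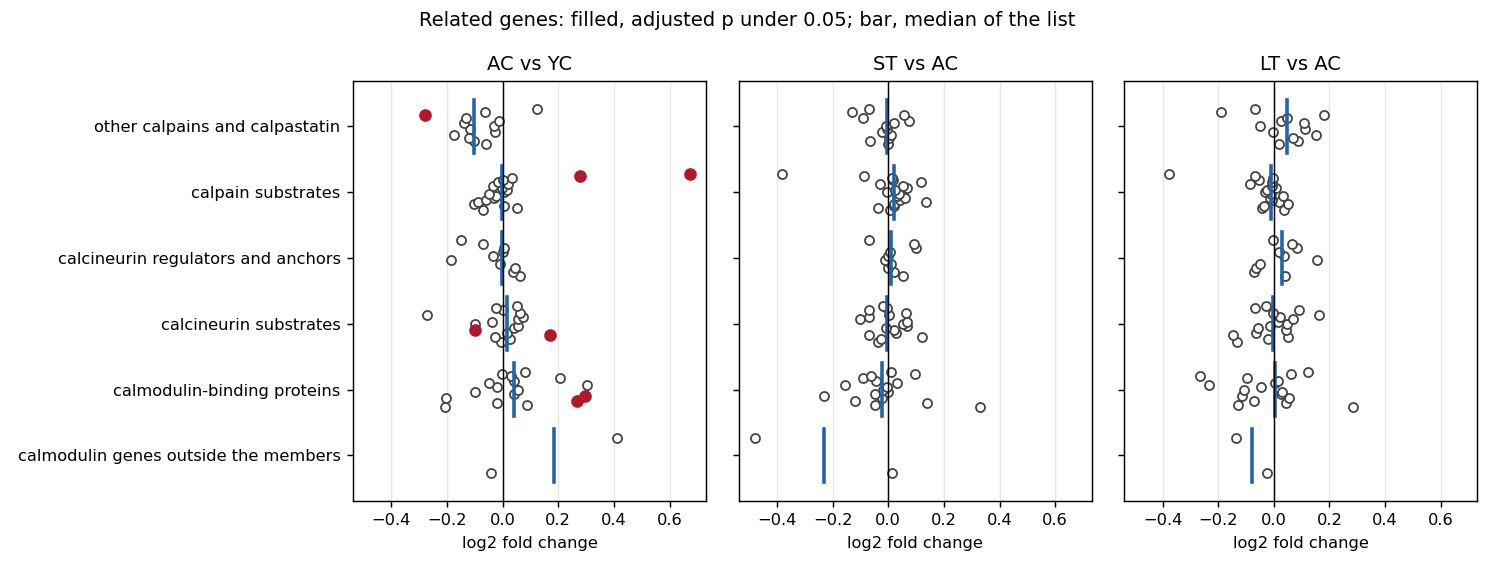
Log2 fold change (horizontal) of each tested gene on 6 lists of related genes in AC against YC, ST against AC and LT against AC, with the median of each list as a bar and filled points for an adjusted p under 0.05. All 7 filled points, from Capn9 (-0.28) to Vim (0.67), are in AC against YC.

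The genes whose log2 signals followed the members most closely over the 23 arrays were found for the 3 members with the smallest F test p. For Ppp3cb they were Maml3 (Pearson r = 0.88), Fancd2osl1 (0.85) and Lyg1 (0.83), for Capns1 10705978 Psmd1 (0.82), Idh3a (0.79) and Naa15 (0.78), and for Capn1 Bscl2 (0.74), Tnip1 (0.72) and Zdhhc6 (0.71). These are the highest of all tested probe sets outside the members and share array, group differences and normalization with them, so they are given as a description.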

How the data were processed

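The deposited values are probe set signal intensities that the authors made with the Robust Multiarray Average algorithm (RMA) from Affymetrix Rat Gene 1.0 ST arrays, 1 animal each; Partek is also listed in the submitters' processing notes, with no version given in these sources. They are unlogged whole numbers with 758 blanks (none in AC), which touch 204 of the tested probe sets and were left missing. The study's kind of filter was used (1 gene symbol, and 40 or more on 4 or more arrays), which with the annotation used here kept fewer probe sets than in the study. Log2 signals were fitted with limma 3.58.1 in R 4.3.3, with 1 mean for each of the 4 groups and empirical Bayes moderation, and p values were adjusted by Benjamini-Hochberg over 13339 probe sets. The methods' analysis of variance was replaced by limma because groups hold 5 or 6 arrays.

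Marker scores are mean centred log2 signals of fixed marker genes. For genes on lists, the probe set with the highest mean signal was used. Correlations within groups used 100000 permutations. The fit was tested on simulated data. The number of arrays limits the precision. Alternatives were leaving out each array, other tests, filters, scalings, weights and covariates, and the replicate number as a block. Named were all probe sets of the 9 genes, genes of each list called in the comparisons described (at most 4, otherwise the 2 with the smallest p in AC against YC) and the 3 genes most like each of 3 members. The members and lists were chosen with earlier results of these data known. Start site sequences are from RefSeq (GRCr8).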

Additional observations from a re-analysis of the deposited data

Results flagged for a closer look

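Of 48 combinations of a probe set and a group, 6 held an array that stood apart from its group by the ratio of its gap to the group's range (Dixon's 95% limit), and chance alone flags about 1 in 20. For Ppp3ca, AC replicate 5 gave 5732 with 7991 the next value. For Ppp3cb, ST replicate 1 was highest at 3253, with 3051 next, and for Calm2 10785475, LT replicate 5 was lowest at 5666, with 5992 next. For Ppp3r1 10774310, YC replicate 1 was highest at 2070, and for the untested Ppp3r1 10908218, LT replicate 3 was highest at 45. For Capns1 10705978, YC replicate 2 was highest at 2994, with 2909 next.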

How the results depend on the processing

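The 20 differences followed singly were those with an unadjusted p under 0.05 and those of Ppp3ca in 3 comparisons, and 18 kept their direction under all alternatives run. Some alternatives could not change a direction, namely the other filters, the variance trend and fitting only the groups compared. Nor could leaving out an array of a group outside the comparison, so part of this stability was fixed in advance. Ppp3ca and Ppp3r1 10774310 in AC against YC turned to 0.13 and 0.026 with the microglia marker score as a covariate, which was chosen after seeing the data. Of the 68 other differences, none above 0.061 in size changed direction, but 35 near 0 did.

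Members called in AC against YC were 1 in the main analysis, 2 with array medians made equal, and 0 with only the groups compared, without the 4 choroid-high arrays (those with high choroid plexus markers), or with the neuron or the microglia score as a covariate. Leaving out 1 array gave 1 to 3, with 3 without AC replicate 1, where Ppp3r1 and Capn1 passed too. Without that array the number called over all tested probe sets rose from 0 to 65 in ST against AC. In ST and LT averaged against AC it rose from 4 to 120, so the gain in calls was not confined to the members. With only the groups compared, all probe sets called in AC against YC fell from 1300 to 385. In all aged rats against YC the count of 1 became 0 with array medians made equal, without the 4 choroid-high arrays and with the neuron score, and 0 to 1 on leaving out 1 array (0 without YC replicate 1, 2, 4 or 6). The F test gave 0 without the 4 arrays, and 0 to 2 on leaving out 1 array, with 2 without AC replicate 1 and 0 without AC replicate 2, 3 or 4, or when YC replicate 2, 4 or 6 was dropped. In ST against YC the count of 0 became 1 with array weights, with a variance trend, with only the groups compared and with the microglia score, and 0 to 1 on leaving out 1 array (1 without AC replicate 1 or 5 or ST replicate 1). With the microglia score the probe set called was not Ppp3cb, which had an adjusted limma p of 0.35 there. In LT against AC it was 0 to 1, with 1 without AC replicate 1 (Ppp3cb, 0.16, adjusted p = 0.035). The cause of these changes was not tested.

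Leaving out 1 array moved r between 0.47 and 0.92 for Ppp3ca with Ppp3r1, where the adjusted p was above 0.05 without any AC replicate, YC replicate 3, ST replicate 4 or 5, or LT replicate 1, 4 or 5, between -0.10 and 0.12 for Ppp3cc with Ppp3r1, between 0.27 and 0.63 for Capn1 with Capn2 (0.63 without ST replicate 1, adjusted permutation p = 0.022) and between -0.015 and 0.15 for Capn1 with Capns1. With array medians made equal, Ppp3cc with Ppp3r1 gave 0.29, and without the 4 choroid plexus arrays Ppp3ca with Ppp3r1 gave 0.90 (adjusted permutation p = 0.17). These were chosen after seeing the data.

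Probe sets called in AC against YC numbered 1300 in the main analysis and 385 to 2355 under the alternatives. Replicate numbers are only names, since arrays of the same number did not deviate together (median correlation 0.00012 over 33 pairs, 7 over 0.1). With the replicate block, Ppp3cb gave -0.16 in AC against YC (adjusted p = 0.011), members called stayed at 1, and all probe sets called at 1169.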
